A study of Mus musculus with 4 samples.

Results

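The 28 genes described here encode enzymes that build cholesterol from acetyl-CoA and proteins that regulate this pathway. They were chosen by symbol from a fixed list, and each matched 1 of the 54232 rows of the gene table. RNA was sequenced from whole testes of mice of the B6D2F1 cross at postnatal day 17, with 2 libraries from Dis3 wild-type controls (WT) and 2 from Dis3 conditional knockouts (KO). The Dis3 protein is an RNA-degrading enzyme of the exosome. The labels state neither the allele nor the Cre line used, nor whether each library came from its own animal, so p-values measure only the spread between these libraries, which may be technical.

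Cholesterol is made in the endoplasmic reticulum by way of mevalonate, farnesyl diphosphate, squalene and lanosterol. When sterol falls, SCAP escorts the transcription factor SREBP2 to the Golgi, where it is cut and released to switch on the enzyme genes. INSIG proteins hold SCAP back when sterol is plentiful. In testis, cholesterol is the starting material of androgens in Leydig cells, and sterols between lanosterol and cholesterol accumulate in germ cells.

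Reads assigned to genes numbered 31031920 in WT replicate 1, 40329170 in WT replicate 2, 17663416 in KO replicate 1 and 19255782 in KO replicate 2, and values below follow this order. Levels are given as CPM, the reads per 1000000 of a library size scaled by TMM, a method that aligns libraries on the bulk of their genes. Log2 fold changes are KO over WT, ± SE, and a gene is said to rise or fall where its edgeR quasi-likelihood p-value, adjusted over all 25076 genes tested, was under 0.05. Dis3 itself was at 80.2 and 80.7 CPM in WT and at 39.6 and 42.9 CPM in KO (log2 fold change -0.96 ± 0.0729, adjusted p = 2.34e-09).

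Promoter sequences are shown for 5 members. Idi1 and Insig1 fell, and Nsdhl and Mylip rose. Hmgcs1 was the only member with a window that matched the form of the sterol regulatory element searched. Other forms of the element were not searched. The sequences come from RefSeq (GRCm38.p6), which had windows from 250 bases before to 50 after the start site for 24 of the 28 members. Fdft1, Fdps, Sqle and Stard4 had no entry. The 250 bases before the start site are printed 5′ to 3′ on the strand of the gene, and capitals mark 2 motifs searched on both strands: TCACNCCAC, a form of the sterol regulatory element bound by SREBPs, and the box CCAAT, bound by NF-Y.
Idi1 chr13:8885356-8885605 (+ strand): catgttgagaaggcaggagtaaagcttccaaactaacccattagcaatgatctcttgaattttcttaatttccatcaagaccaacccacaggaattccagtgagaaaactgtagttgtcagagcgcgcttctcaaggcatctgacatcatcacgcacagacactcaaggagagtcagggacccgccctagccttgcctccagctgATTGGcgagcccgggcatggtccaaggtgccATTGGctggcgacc
Insig1 chr5:28071162-28071411 (+ strand): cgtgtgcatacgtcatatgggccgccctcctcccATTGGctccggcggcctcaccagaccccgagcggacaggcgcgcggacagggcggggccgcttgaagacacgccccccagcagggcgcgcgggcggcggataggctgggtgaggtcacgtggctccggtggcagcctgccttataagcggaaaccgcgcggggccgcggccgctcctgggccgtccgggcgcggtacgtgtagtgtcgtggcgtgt
Nsdhl chrX:72918271-72918520 (+ strand): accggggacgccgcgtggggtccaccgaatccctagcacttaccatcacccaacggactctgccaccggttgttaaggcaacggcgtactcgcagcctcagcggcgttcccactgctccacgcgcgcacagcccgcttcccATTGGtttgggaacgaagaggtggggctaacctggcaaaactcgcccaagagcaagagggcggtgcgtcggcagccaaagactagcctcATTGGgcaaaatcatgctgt
Mylip chr13:45389492-45389741 (+ strand): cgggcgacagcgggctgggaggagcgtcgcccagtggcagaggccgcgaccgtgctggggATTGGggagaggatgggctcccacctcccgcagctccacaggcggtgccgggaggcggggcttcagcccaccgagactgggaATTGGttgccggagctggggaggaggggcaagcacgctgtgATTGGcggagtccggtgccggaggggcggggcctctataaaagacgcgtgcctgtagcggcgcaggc
Hmgcs1 chr13:119690101-119690350 (+ strand): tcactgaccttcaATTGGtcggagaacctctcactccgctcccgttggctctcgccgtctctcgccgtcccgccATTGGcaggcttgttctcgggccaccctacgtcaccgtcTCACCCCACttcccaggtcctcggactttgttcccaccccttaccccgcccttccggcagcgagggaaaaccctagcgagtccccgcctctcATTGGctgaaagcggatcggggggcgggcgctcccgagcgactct

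TCACNCCAC was found in 1 of the 24 members, at bases -137 to -129 of Hmgcs1 (base -1 lies just before the start site), and in 1.44% of all 27025 genes with windows. CCAAT was found in 22 of the 24 members (91.7%) and in 41.1% of all genes, with Acat2 and Scap lacking it. By window, these letters were in 23 of 32 member windows (71.9%) and in 37.4% of all 32851. The cAMP response element TGACGTCA was in none of the 32 member windows and in 1.79% of all windows. In all 5 printed sequences the CCAAT letters lie on the opposite strand (ATTGG as printed), and no match overlaps one of the other motif. A match is a description of letters and not of a bound site.

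Among the role groups, all 3 genes from squalene to lanosterol, 3 of 6 from mevalonate to the prenyl diphosphates and 3 of 5 for SREBPs and their partners were lower in KO testes. Of the 9 from lanosterol to cholesterol 2 were lower, and of the 3 for acetyl-CoA and HMG-CoA none passed. Of the 28 members 11 fell (39.3%), 2 rose (7.14%) and 15 did not pass. Over all genes tested 20.3% were lower and 11.6% higher. With libraries scaled to Sertoli cell markers the members gave 16 lower and 1 higher, and all genes 7367 lower and 1868 higher in place of 5092 and 2906.

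All 28 members were tested, with between 25 and 8442 reads per library, and 26 held at least 5 times the background reads. Background is the read density per kilobase upstream of untested autosomal genes. Among the 16361 genes this well read, 31.0% were lower and 8.53% higher, beside 10 (38.5%) and 2 (7.69%) of the 26 members. The median log2 fold change was -0.11 over these members and -0.12 over those genes, so the middle of the members' distribution lay at that of other well-read genes. In 18 members (64.3%) both KO libraries lay below both WT libraries, which held for 32.7% of all genes and 48.1% of well-read genes. In 5 members (17.9%) both lay above, against 35.6% and 22.3%. The plot of fold changes in pathway order shows these values.

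**Figure D1:**
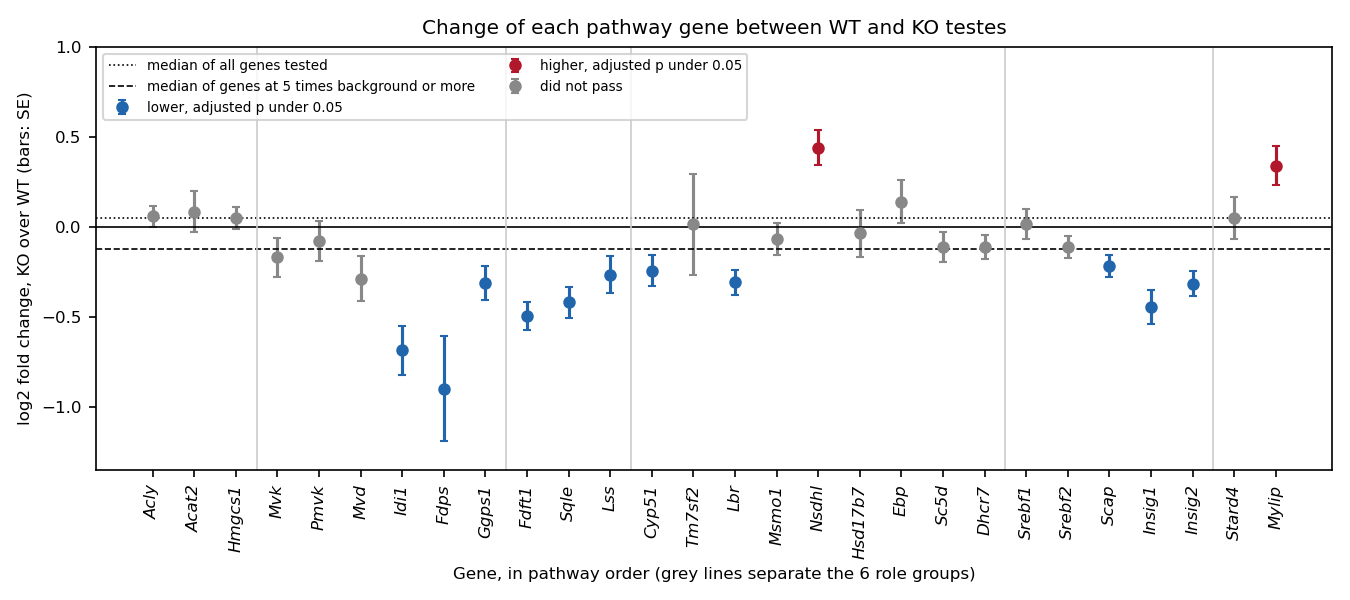
Log2 fold change (KO over WT, vertical axis) of the 28 genes in pathway order, with bars for the SE; blue points fell, red points rose and grey points did not pass the test, and horizontal lines mark the median of all genes tested and of well-read genes. The 3 genes from squalene to lanosterol (Fdft1, Sqle, Lss) all lie below the dashed line, while Nsdhl and Mylip stand above the others.

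Of the 3 genes that supply acetyl-CoA and HMG-CoA 0 passed the edgeR test, 0 had an unadjusted p under 0.05 and 0 passed with DESeq2. Acly, ATP citrate lyase, which makes cytosolic acetyl-CoA, was at 215 and 223 CPM in WT replicates 1 and 2 and at 225 and 231 CPM in KO. Hmgcs1, the synthase that makes HMG-CoA, was at 116 and 121 CPM in WT and at 122 and 124 CPM in KO (log2 fold change 0.05 ± 0.0612, adjusted p = 0.551). In both genes the KO libraries lay just above the WT libraries, by less than was needed to pass. Acat2, the cytosolic thiolase that joins acetyl-CoA units, was at 15.8 and 14.2 CPM in WT and at 15.9 and 15.9 CPM in KO (0.09 ± 0.115). Its paralog Acat3, which shares sequence with it, was at 5.89 to 7.02 CPM in the 4 libraries. Reads that map to both were left out, so the counts of this pair are uncertain. The signs of all 3 fold changes turned with another scaling, so no direction is given for this group.

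From mevalonate to the prenyl diphosphates, 3 of 6 genes fell. The largest well-read fall among all members was that of Idi1, the isomerase that interconverts the 5-carbon isoprene units (GRCm38, the build of all positions here, chromosome 13, 8885501 to 8892451). It went from 13.1 and 12.6 CPM in WT to 8.29 and 7.72 CPM in KO, which is 62.1% of the WT mean. The KO libraries were well clear of the WT ones (log2 fold change -0.69 ± 0.134, adjusted p = 0.000369), and Idi1 passed under each of the 11 alternatives. Its paralog Idi2 had 2, 4, 6 and 10 reads in the libraries and was not tested.

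Ggps1, which extends farnesyl to geranylgeranyl diphosphate for protein prenylation (chromosome 13, 14050659 to 14063488), was at 48.3 and 50.4 CPM in WT and at 34.8 and 44.7 CPM in KO. Its call (-0.31 ± 0.0946, adjusted p = 0.0171) was lost without KO replicate 1 (-0.17, adjusted p = 0.221) and with a filter of 1 CPM in 2 libraries (-0.24, adjusted p = 0.0505). Fdps, the farnesyl diphosphate synthase, had 74 and 106 reads in WT and 30 and 25 in KO (-0.90 ± 0.291, adjusted p = 0.0210). Of its coding bases 85.9% are also exons of Gm43738, an overlapping gene model on the same strand, and reads that fall in more than 1 gene were not counted. The fall is therefore that of the bases left to count, at 3.97 times background. Leaving out a library gave -0.83 for WT replicate 2 (adjusted p = 0.0906) and -0.74 for KO replicate 2 (0.137). DESeq2 gave an adjusted p of 0.0767, and subtracting background gave a value of -1.68.

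The kinase and decarboxylase genes of this stretch did not pass. Mvk, mevalonate kinase, had a log2 fold change of -0.17 ± 0.110, Pmvk, phosphomevalonate kinase, one of -0.08 ± 0.110, and Mvd, the decarboxylase, one of -0.29 ± 0.125 (adjusted p = 0.0793). In each of these 3 genes both KO libraries lay below both WT libraries, an order also found in 48.1% of well-read genes. With scaling to Sertoli cell markers Mvk (-0.31, adjusted p = 0.0341) and Mvd (-0.43, adjusted p = 0.00781) passed, and Mvd also passed without a filter on low counts (-0.36).

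All 3 genes from squalene to lanosterol fell. Fdft1, squalene synthase, the first enzyme committed to sterols (chromosome 14, 63145150 to 63179578), went from 61.6 and 63.1 CPM in WT to 46.6 and 41.9 CPM in KO (-0.50 ± 0.0762, adjusted p = 2.39e-05). Sqle, squalene epoxidase, a rate-limiting step (chromosome 15, 59315077 to 59331192), went from 50.6 and 59.3 CPM to 39.1 and 43.2 CPM (-0.42 ± 0.0854, adjusted p = 0.000615). Both passed under all 11 alternatives, and in both every KO value lay below every WT value. Lss, lanosterol synthase (chromosome 10, 76531588 to 76557138), was at 27.4 and 26.1 CPM in WT and at 20.2 and 24.1 CPM in KO (-0.26 ± 0.101, adjusted p = 0.0481). This p lay near the threshold, and Lss no longer passed when WT replicate 1 (adjusted p = 0.0970), WT replicate 2 (0.0600) or KO replicate 1 (0.339, value -0.17) was left out, and with a filter of 1 CPM in 2 libraries (0.120). The summed level of the 3 genes was 140 and 148 CPM in WT and 106 and 109 CPM in KO.

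**Figure D2:**
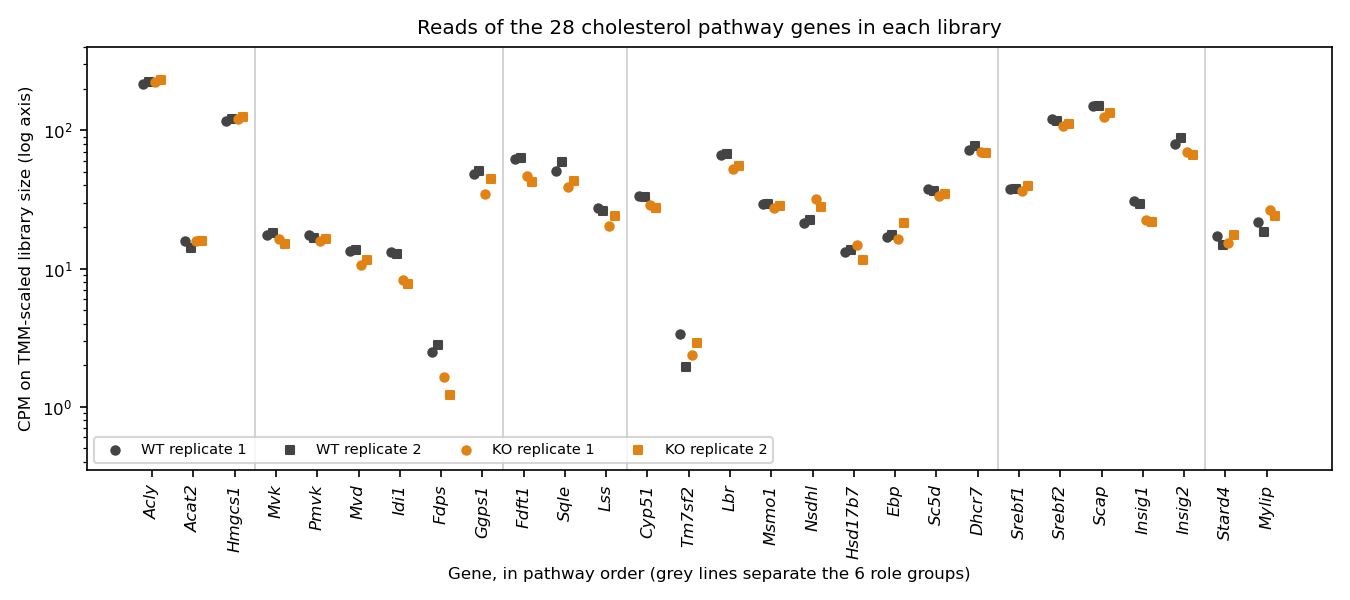
CPM on a log axis (vertical) of each gene in each of the 4 libraries, in pathway order; grey marks are WT, orange marks KO, circles replicate 1 and squares replicate 2. In Idi1, Fdft1, Sqle, Insig1 and Insig2 both orange marks lie below both grey marks, and in Nsdhl and Mylip above them.

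Of the 9 genes that turn lanosterol into cholesterol, 2 fell, 1 rose and 6 did not pass. Cyp51, the lanosterol demethylase whose product is a meiosis-activating sterol (chromosome 5, 4081145 to 4104746), went from 33.5 and 33.1 CPM in WT to 29.0 and 27.4 CPM in KO (-0.24 ± 0.0872, adjusted p = 0.0368). The groups did not overlap, but Cyp51 missed the threshold when WT replicate 1 (adjusted p = 0.0636), WT replicate 2 (0.0994) or KO replicate 2 (0.0895) was left out, and with the 1 CPM filter (0.114). Lbr, a sterol reductase that is also the lamin B receptor of the nuclear envelope (chromosome 1, 181815335 to 181843046), went from 65.8 and 67.5 CPM to 52.4 and 55.2 CPM (-0.31 ± 0.0711, adjusted p = 0.00181). It passed under all 11 alternatives.

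Tm7sf2, the other reductase for the same step, had few reads, at 3.38 and 1.92 CPM in WT and 2.36 and 2.91 CPM in KO, and its groups overlapped. Of its annotated exonic bases 47.2% are shared with the neighbouring gene Vps51 or with the overlapping model Gm28374, none of them coding. Its level per length is therefore understated.

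Nsdhl, the sterol dehydrogenase that helps to remove the methyl groups of lanosterol, was the enzyme gene that rose. It lies on chromosome X (72918557 to 72958514) and went from 21.4 and 22.5 CPM in WT to 32.0 and 27.7 CPM in KO (0.44 ± 0.0974, adjusted p = 0.00124). DESeq2 left it just short of the threshold (0.33, adjusted p = 0.0587), and the other 10 alternatives kept the call. Ebp, the sterol isomerase and the other X-linked member, was at 16.9 and 17.4 CPM in WT and at 16.2 and 21.5 CPM in KO, with groups that overlapped (0.14 ± 0.120).

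The partners of NSDHL in demethylation did not pass: Msmo1, the methyl oxidase, had a log2 fold change of -0.07 ± 0.0889 and Hsd17b7, the ketoreductase, one of -0.03 ± 0.130. Sc5d, the desaturase, was at 37.3 and 36.4 CPM in WT and at 33.4 and 34.7 CPM in KO (-0.11 ± 0.0827). Dhcr7, the reductase of the last step, was at 71.9 and 77.2 CPM in WT and at 69.6 and 68.5 CPM in KO (-0.11 ± 0.0686). Sc5d and Dhcr7 passed with scaling to Sertoli cell markers, both at -0.26 (adjusted p = 0.0278 and 0.00942).

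Of the SREBP genes and their partners, 3 of 5 fell. Insig1, an endoplasmic reticulum retention protein whose own gene is a target of SREBPs (chromosome 5, 28071363 to 28078662), went from 30.8 and 29.2 CPM in WT to 22.3 and 21.7 CPM in KO (-0.45 ± 0.0932, adjusted p = 0.000739). Insig2, its paralog with the same retention role (chromosome 1, 121304353 to 121332589), went from 79.8 and 88.6 CPM to 69.6 and 65.9 CPM (-0.32 ± 0.0707, adjusted p = 0.00142). Both retention genes were lower in each KO library than in each WT library and passed under all 11 alternatives. Scap, the escort and sterol sensor (chromosome 9, 110333288 to 110384950), went from 149 and 151 CPM to 125 and 133 CPM (-0.22 ± 0.0610, adjusted p = 0.00906), and missed the threshold without WT replicate 2 (0.0653).

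The transcription factor genes themselves did not pass. Srebf2, which encodes SREBP2, was at 120 and 116 CPM in WT and at 107 and 112 CPM in KO (-0.11 ± 0.0620, adjusted p = 0.172). With DESeq2, without KO replicate 2 and with scaling to Sertoli cell markers it passed (-0.22, -0.19 and -0.26, adjusted p = 0.0291, 0.0451 and 0.00478). Srebf1, which encodes the SREBP1 forms that act mainly on fatty acid genes, was at 37.7 and 37.3 CPM in WT and at 36.2 and 39.5 CPM in KO, with groups that overlapped (0.02 ± 0.0825). Counts were made over whole genes, so the germ cell form of SREBP2 was not told apart from the others.

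The remaining members act on sterol transport. Mylip, an E3 ubiquitin ligase induced by sterols that marks lipoprotein receptors for breakdown (chromosome 13, 45389742 to 45412022), went from 21.9 and 18.2 CPM in WT to 26.7 and 24.0 CPM in KO (0.34 ± 0.106, adjusted p = 0.0171). The groups did not overlap, yet 5 of the 11 alternatives lost the call, among them leaving out WT replicate 2 (0.20, adjusted p = 0.295) or KO replicate 1 (0.24, 0.163). DESeq2 gave an adjusted p of 0.238, no filter on low counts 0.0733 and Sertoli scaling 0.162. Stard4, a cytosolic sterol carrier, was at 17.1 and 14.7 CPM in WT and at 15.4 and 17.3 CPM in KO, and its groups overlapped (0.05 ± 0.117).

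Levels can be compared between genes only per length of exon, here as CPM per kilobase (RPKM) in WT. Acly was highest, at 40.8 and 42.2 in the WT libraries, followed by Hmgcs1 at 25.8 ± 0.679 (SD, n = 2) and Insig2 at 24.2 ± 1.79, and the ranges of the last pair overlapped. Scap followed at 20.1 ± 0.200, Srebf2 at 16.5 ± 0.367, Fdft1 at 14.8 ± 0.260 and Lbr at 13.8 and 14.2. Of the 27 neighbouring pairs in this order, 11 had WT ranges that overlapped, most of them in the middle between Pmvk (9.93 ± 0.370) and Acat2 (5.90 ± 0.458). At the low end stood Idi1 (3.67 ± 0.0999), Stard4 (2.84 ± 0.299), Hsd17b7 (2.63 ± 0.0405) and Lss (2.48 ± 0.0863), below which only Fdps and Tm7sf2 lay, with the lost or shared bases described above. The place of Lss rests on its annotated exon length, 10787 bases with 2223 coding, the longest of the members. Before division by length its WT mean was 26.7 CPM, above Idi1 (12.9) and Hsd17b7 (13.4). The first 5 genes held the same places in KO. The largest move was that of Mylip, from place 20 in WT to 13 in KO, followed by Nsdhl (13 to 9) and Ebp (16 to 12). Ebp did not pass the test, and its WT and KO values overlapped. Insig1, Sqle, Cyp51 and Mvd each moved down by 3 places.

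**Figure D3:**
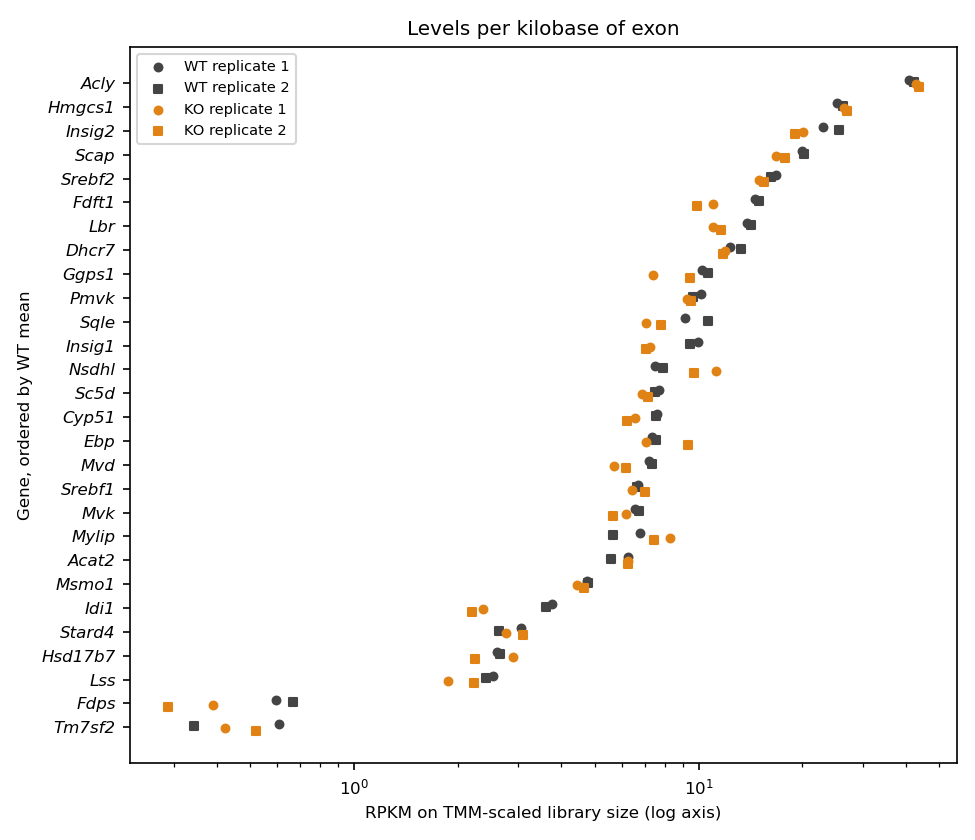
RPKM on a log axis (horizontal) of the 28 genes ordered by WT mean, with 1 mark per library (grey WT, orange KO). Acly stands apart at the top, and Fdps and Tm7sf2 at the bottom, where shared exons lower the counted reads or raise the counted length.

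Other lists of sterol and lipid genes are given by their counts, to be read beside the 31.0% of well-read genes that were lower and the 8.53% that were higher, and the lists were not tested against each other. Of 10 genes for SREBP processing and sterol-regulated proteins of the endoplasmic reticulum, 2 fell and 0 rose (median -0.12): Erlin1, part of a complex that helps to degrade membrane proteins (-0.49 ± 0.0745), and Syvn1, a ubiquitin ligase of the endoplasmic reticulum (-0.42 ± 0.0653). Mbtps1 and Mbtps2, the proteases that cut SREBPs, did not pass (0.05 ± 0.0625 and 0.28 ± 0.114). Of the 5 electron donors for sterol oxidation 0 passed with edgeR (median -0.02), 1 had an unadjusted p under 0.05 and 1 passed with DESeq2. Among them was Por, the reductase that serves CYP51 and squalene epoxidase (-0.03 ± 0.0744).

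Of 14 genes that use isoprenoids, 4 fell and 0 rose (median -0.13): Icmt, which methylates prenylated proteins (-0.38 ± 0.0664), Rabggta, a subunit of Rab geranylgeranyl transferase (-0.57 ± 0.127), Fnta, a farnesyl transferase subunit (-0.23 ± 0.0648), and Coq2 of ubiquinone synthesis (-0.40 ± 0.119). Of 11 fatty acid genes 3 rose and 3 fell (median 0.07). Acss2, which makes acetyl-CoA from acetate, fell by 0.46 ± 0.0721 on the log2 scale and Acsl3, an acyl-CoA synthetase, by 0.33 ± 0.0692. Gpam, of glycerolipid synthesis (0.30 ± 0.0722), and Scd2, a desaturase (0.24 ± 0.0589), rose. No gene of this list was higher with DESeq2, without a filter or with Sertoli scaling, and 1 was higher without WT replicate 2 or without KO replicate 1.

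Of 16 genes for sterol storage, transport and efflux 5 rose and 0 fell (median 0.05). Soat1, which esterifies cholesterol for storage, went from 215 and 212 CPM in WT to 275 and 289 CPM in KO (0.40 ± 0.0590, adjusted p = 1.34e-05) and passed under all 11 alternatives. Lrp8, a lipoprotein receptor (0.24 ± 0.0594), Cyp27a1, a sterol hydroxylase (0.49 ± 0.150), and Scarb1, the HDL receptor (0.17 ± 0.0613), also rose. Under Sertoli scaling this list held 1 higher and 4 lower genes (median -0.10), and with DESeq2 1 and 1. It held 1 and 0 without WT replicate 1, 3 and 0 without WT replicate 2, and 2 and 2 without KO replicate 2.

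Markers of several testis cell types differed between the same libraries. All 12 pachytene spermatocyte markers fell (median -0.88), with a summed level of 4089 and 4206 CPM in WT and 2742 and 2519 CPM in KO, as did 13 of 15 early meiotic genes (median -0.41; 4636 and 4777 against 3403 and 3383 CPM) and 5 of 10 spermatogonial markers (881 and 929 against 659 and 630 CPM). Of 14 Sertoli cell markers 4 rose (6935 and 6693 against 7599 and 7459 CPM), a count that ranged from 1 (with DESeq2, without a filter, with scaling to these markers or without WT replicate 1) to 6 (with the replicate block or without KO replicate 1) and 9 (with the 1 CPM filter). With DESeq2 and with scaling to these markers 1 also fell. Of 12 macrophage markers 10 rose (198 and 196 against 321 and 314 CPM). Leydig cell markers went both ways, with 2 higher and 3 lower of 10, at sums of 503 and 507 CPM in WT and 505 and 520 CPM in KO. Among the 3 that fell was Star, which brings cholesterol to the mitochondrion (-0.48 ± 0.0657). Among the 2 that rose was Hsd3b6 (0.65), which passed under all 11 alternatives. Of 8 adipose genes 5 were tested and 3 rose, at sums of 21.2 and 21.5 CPM in WT and 35.4 and 49.4 CPM in KO. None of these markers was at 0 in a library. In whole testis, fewer cells of a type and less RNA per cell cannot be told apart, and the part of these shifts in the values of the cholesterol genes was not tested.

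The upstream tables count reads in the 3000 bases before a gene, where short-lived promoter transcripts that the exosome degrades arise. Regions were listed for 15 of the 28 members, none overlapping an annotated gene of GENCODE M21. Antisense reads of 1 member rose and 0 fell among 15 tested, and over all 18281 regions tested 8.51% rose and 8.60% passed in either direction. Sense reads passed the edgeR test in 0 of 14 tested members (3 at an unadjusted p under 0.05, 0 with DESeq2), against 0.0166% of 18087 regions. The member that passed was Fdps, with 5 and 19 antisense reads in WT and 30 and 35 in KO (2.25 ± 0.477, adjusted p = 0.0170; chromosome 3, 89101960 to 89104959). Its value was 1.73 without WT replicate 1, 3.26 without WT replicate 2 and 1.29 with the table scaled on itself. A silent upstream region held 8.11 and 7.59 reads in WT and 9.04 and 10.2 in KO, so that the WT reads of Fdps were near this background in replicate 1 and above it in replicate 2.

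Antisense log2 fold changes were positive in 13 of the 15 members, with a median of 0.81, and the median over all tested regions was 0.99. The members' antisense values thus lay close to the middle of the table. Sense log2 fold changes were positive in 11 of the 14 tested members, with a median of 0.89, against 0.90 over all tested regions. Upstream reads were scaled by the gene library size, which was smaller in KO. Silent regions held no fewer reads in KO than in WT, so they were also higher in KO per library size. The part of this background in the members' upstream values was not tested. Cyp51 had 17 and 12 antisense reads in WT and 22 and 23 in KO (1.39 ± 0.477, adjusted p = 0.0691), and Srebf1 had 18 and 12 in WT and 23 and 28 in KO (1.52 ± 0.460, adjusted p = 0.0523). Srebf2 had the most antisense reads of the members, 109 and 125 in WT and 67 and 39 in KO (-0.34 ± 0.285). This value was -0.88 without KO replicate 1, 0.074 without KO replicate 2 and -1.27 with the table scaled on itself, so no direction is given. The number of members that passed was 5 without WT replicate 1, 2 without WT replicate 2, 4 with a replicate block and 0 with the table scaled on itself, where Fdps had an adjusted p of 0.382.

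**Figure D4:**
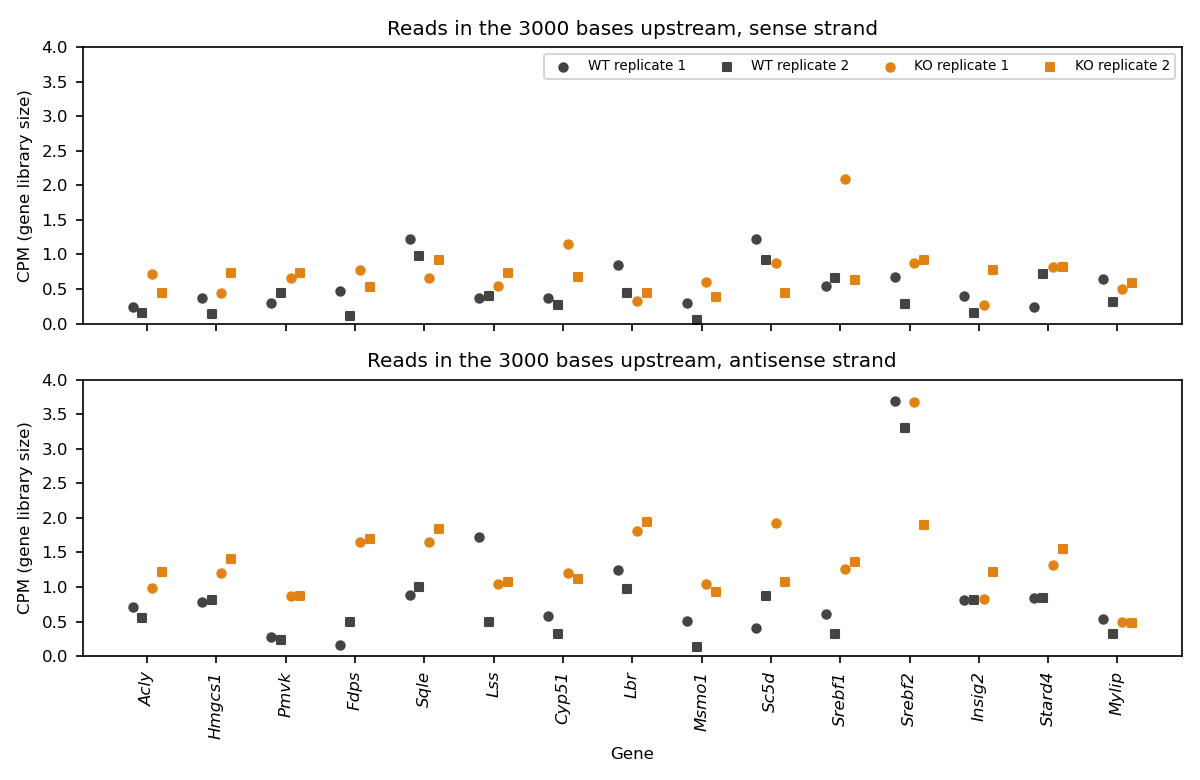
CPM on the library size of the gene table (vertical) of reads in the 3000 bases upstream of the 15 members with a region, on the sense strand (top) and the antisense strand (bottom), with 1 mark per library (dark grey WT, orange KO). In 12 of the 15 regions, Fdps among them, the antisense marks of both KO libraries lie above both WT marks. On the sense strand the same order holds in 9 of the 15. Srebf2 holds the highest antisense levels in both WT libraries.

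How the fold changes of the members moved with the processing is drawn in the plot of alternatives. Of the 13 members that passed, Idi1, Fdft1, Sqle, Lbr, Insig1 and Insig2 passed under each of the 11 alternatives, and none of the 13 changed sign.

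**Figure D5:**
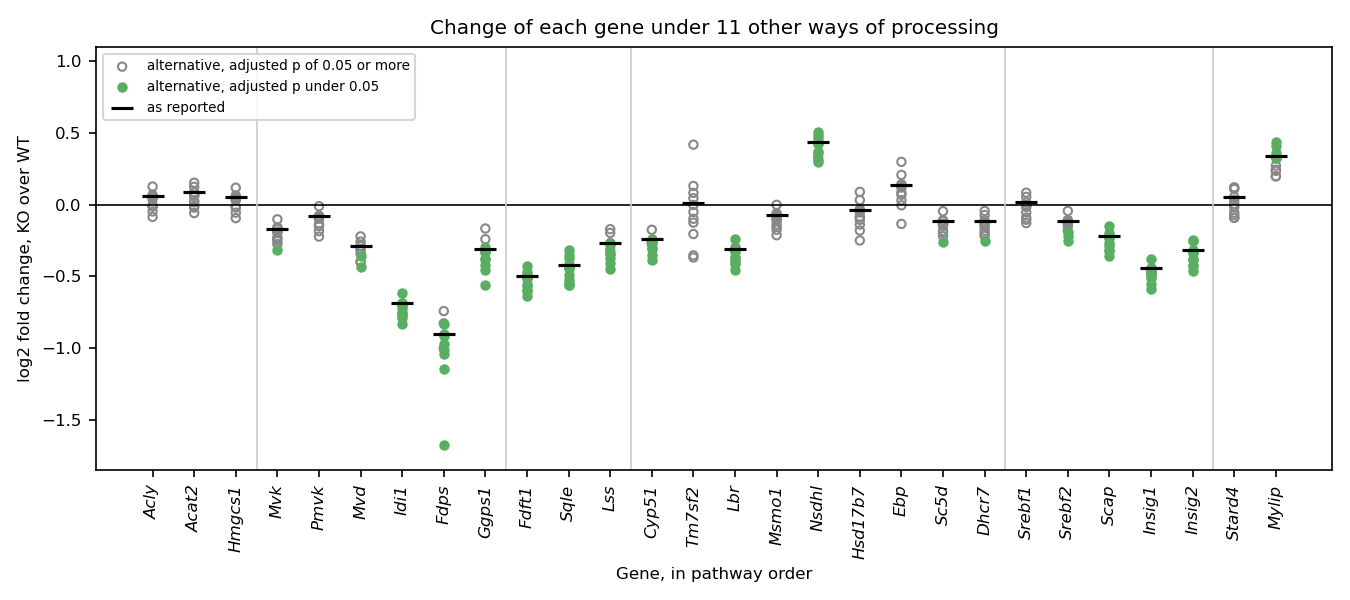
Log2 fold change (KO over WT, vertical) of each gene as reported (black bars) and under 11 alternatives (circles; green where the adjusted p was under 0.05, open otherwise). The circles of Idi1, Fdft1, Sqle, Lbr, Insig1 and Insig2 are all green and below 0, while those of Acly, Hmgcs1, Srebf1 and Stard4 lie on both sides of 0.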

How the data were processed

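Raw counts from 4 testis libraries were analysed. Per the file headers, the authors ran featureCounts 1.6.4 on exons of GENCODE M18 genes and, in separate tables, on regions of 3000 bases upstream of genes, by strand. Trimming with cutadapt, alignment tool HISAT2 and build GRCm38.p5 are named in the submitters' processing notes, without versions for the tools. No option that keeps multi-mapping reads or reads in several genes appears in the recorded commands. Symbols matched 99.7% of gene IDs.

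Differences were tested on the deposited counts by edgeR 4.0.16 (R 4.3.3; filterByExpr, TMM factors from 0.942 to 1.07, robust quasi-likelihood fit, genotype as the only term), with Benjamini-Hochberg adjustment over all genes and a threshold of 0.05. The SE is the fold change divided by the square root of F. Upstream regions were scaled as the gene table was. The fits were run on simulated counts with known changes. For upstream regions the simulated fold changes were first centred on their median, which was not done for the values given here. Background is the mean read density of 14248 upstream regions of untested autosomal genes, trimmed by 0.25 at each end, with a separate value for X. Replicates differed beyond sampling noise (chi-square per gene 4.54 in WT and 5.08 in KO).

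The members, gene lists and alternatives were chosen with earlier results of these data known. All members are named; of each list of other pathway genes, up to 4 that passed with the smallest adjusted p are named. Idi2, Acat3, Vps51, Gm43738, Gm28374, Mbtps1, Mbtps2, Por, Star and Hsd3b6 were named after their values were seen. Each result on gene reads was recomputed in 11 other ways. They were DESeq2 1.42.0, median-of-ratios scaling computed by edgeR on the filtered genes, no low-count filter, and a filter of at least 1 CPM in 2 libraries. The others used the replicate number as a block, scaling on Sertoli cell markers, subtraction of background, and the omission of each of the 4 libraries.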

Additional observations from a re-analysis of the deposited data

How the results depend on the processing

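The 2 libraries per group, the shallower KO libraries and the low counts of Fdps, Tm7sf2 and the upstream regions limit precision. Of 308 member values over 11 alternatives, 243 kept their sign and their side of the threshold, 20 no longer passed, 8 newly passed and 37 changed sign. The sign changes fell on 8 members, none of which passed as reported. Leaving out 1 library gave 7 to 10 members lower (7 without WT replicate 2; the 10 without KO replicate 2 include Srebf2, which did not pass as reported) and 1 to 2 higher, and gave 4060 to 5260 lower and 1324 to 2429 higher genes. Members higher were 0 with DESeq2, 1 without a filter and 1 with Sertoli scaling, and all higher genes 427, 1937 and 1868 in the same order and 1174 after background was subtracted. Relative to the values as reported, the median of all genes shifted by -0.14 with Sertoli scaling and by -0.11 with DESeq2. The cause of these changes was not tested, apart from the scaling shifts themselves. Members with changed upstream antisense reads were 0 with the table scaled on itself, 2 with at least 10 reads in total, 4 with a replicate block and 1 to 5 with 1 library left out. For sense reads leaving out 1 library gave 0 to 1. With the replicate number as a block 11 members were lower and 2 higher, and 5469 genes lower and 3362 higher. Same-numbered libraries did not deviate together (correlation 0.0022), so the numbers are not taken as pairs. Values with the opposite sign were, with DESeq2 Acly (-0.047), Acat2 (-0.021), Hmgcs1 (-0.056), Tm7sf2 (-0.098), Srebf1 (-0.091) and Stard4 (-0.055); without a filter on low counts Acly (-0.011), Hmgcs1 (-0.020), Tm7sf2 (-0.051), Srebf1 (-0.054) and Stard4 (-0.018); with scaling to Sertoli cell markers Acly (-0.086), Acat2 (-0.058), Hmgcs1 (-0.094), Tm7sf2 (-0.13), Ebp (-0.0045), Srebf1 (-0.13) and Stard4 (-0.092). They were also, with median-of-ratios scaling Tm7sf2 (-0.0024) and Srebf1 (-0.0036); after background was subtracted Tm7sf2 (-0.35) and Srebf1 (-0.0058); with a filter of 1 CPM in 2 libraries Hsd17b7 (0.032). With 1 library left out, members whose sign changed ranged as follows: Acat2 (-0.0093 to 0.12), Acly (-0.013 to 0.069), Ebp (-0.13 to 0.30), Hmgcs1 (-0.016 to 0.063), Hsd17b7 (-0.25 to 0.089), Srebf1 (-0.10 to 0.054), Stard4 (-0.091 to 0.12) and Tm7sf2 (-0.37 to 0.42).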
